A study of Mus musculus with 4 samples.

Results

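The genes described here encode the kinetochore, the protein assembly that joins each chromosome to spindle microtubules at mitosis, and the spindle checkpoint that watches over this attachment. The 41 genes were taken by symbol from the 51905 genes of the deposited tables. They fell into 3 subgroups: 17 inner centromere genes, 14 outer kinetochore genes and 10 spindle checkpoint genes. RNA had been sequenced from the mouse colorectal cancer lines CT26 and MC38 after lentiviral delivery of a hairpin targeting mouse Aurora-A (shmaurka-1) or, as control, one targeting GFP (shGFP). The question put to these genes was how transcripts of each layer of the kinetochore differed between knockdown and control within each line.

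The 4 groups were CT26 shGFP, CT26 shmaurka-1, MC38 shGFP and MC38 shmaurka-1, each with 1 library from cells harvested 48 h after seeding. All cells were labelled wild type and colon, so the labels give the hairpin as the one difference within a line, and control cells had gone through the same lentiviral transduction and puromycin selection. A single hairpin against Aurora-A was sequenced. CT26 had been grown in RPMI-1640 and MC38 in high glucose DMEM, so line and medium cannot be told apart. Within a line there was no replicate, so the intervals given with each value set 1 library against another and cover counting error only.

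The inner centromere is built on CENP-A, the histone H3 variant that marks centromeric chromatin and is loaded by the chaperone HJURP with the help of the MIS18 proteins. The constitutive centromere proteins (CENP-C, CENP-T and their partners) sit on this chromatin and recruit the outer kinetochore, in which the NDC80 complex grips the microtubule. Where a kinetochore is unattached, MPS1 kinase, the BUB and MAD proteins and the RZZ complex generate an inhibitor that holds back CDC20, the co-activator of the anaphase-promoting complex (APC/C). Transcripts of many of these genes are known to peak late in the cell cycle. Aurora-A itself is a mitotic kinase of centrosomes and spindle poles.

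Sequencing depth was close between libraries, at 22207768 to 23752269 fragments, where a fragment is a deposited estimated count divided by the step that the library's values are multiples of. The target Aurka was counted 5724 times with shGFP and 1093 times with shmaurka-1 in CT26, and 2300 and 413 times in MC38. Its log2 fold changes were -2.27 and -2.45. The labels call CT26 a fibroblast and MC38 an epithelial cell. Epcam had at most 1 fragment and Cdh1 1 to 6 in every library, so both defining epithelial markers were near 0 in the line labelled epithelial. Of 11 fibroblast markers, 10 had at least 10 fragments in every library. Over all 11 the summed FPKM was 1870 and 1850 in CT26 shGFP and shmaurka-1 and 609 and 639 in MC38. S100a4 (951 FPKM), Fn1 (397) and Vim (357) were the largest in CT26 shGFP, while Thy1 had 2 fragments there. Of 10 epithelial markers 2 had 10 or more fragments in every library, Krt8 and Krt18. Over all 10 the summed FPKM was 43.1 and 42.6 in CT26 and 1.24 and 0.987 in MC38. Most of it in CT26, the line labelled fibroblast, was Krt18 (33.7 and 37.4 FPKM) and Krt20 (8.45 and 4.41). Of 8 leukocyte markers 1 had 10 or more fragments in every library, Cd14, and Cd3e was at 0 in all libraries. Summed FPKM over all 8 lay between 12.0 and 22.6.

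All 41 genes were detected well enough to be compared, that is with 10 or more counts on average in both lines, a filter that 11928 genes in all passed. Per unit of length, the median level over the 41 genes was 18.1 FPKM in CT26 shGFP, 23.2 in CT26 shmaurka-1, 23.9 in MC38 shGFP and 21.9 in MC38 shmaurka-1. Their summed level was 1290 and 1680 FPKM in the 2 CT26 libraries and 1020 and 1040 FPKM in the 2 MC38 libraries. The CT26 control spanned the wider range, from 2.29 FPKM for Cenpk, a CENP-H/I/K/M subunit, to 293 for Zwint, an adaptor of the outer kinetochore. In the MC38 control the range ran from 5.63 FPKM for Cenpf to 75.0 for Zwint. Hjurp was among the most abundant in both lines, at 102 FPKM in CT26 shGFP and 72.2 in MC38 shGFP. Within the NDC80 complex, the CT26 control held 13.2 FPKM of Ndc80, 25.2 of Nuf2, 13.7 of Spc24 and 22.7 of Spc25, and the MC38 control held 19.4, 29.8, 10.6 and 28.7 FPKM in the same order.

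**Figure D1:**
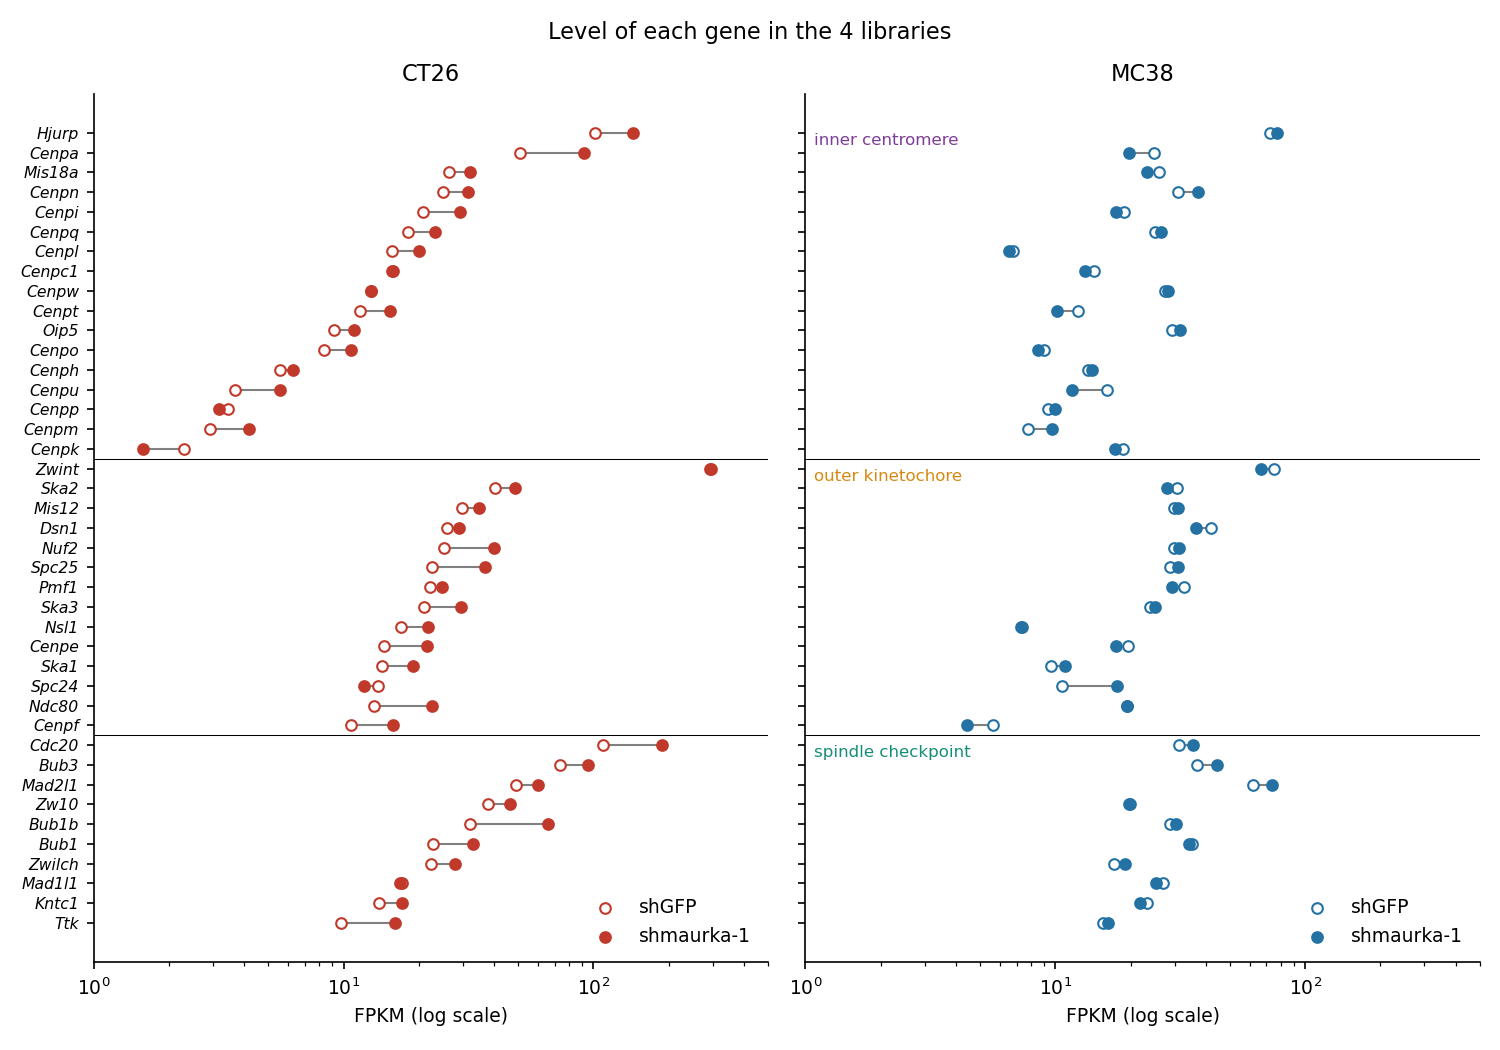
Level of each of the 41 genes in FPKM on a log axis, with open circles for shGFP and filled circles for shmaurka-1, CT26 on the left and MC38 on the right, ordered within each subgroup by the CT26 control. In CT26 most filled circles lie to the right of the open ones, with Cdc20 moving from 109 to 188 FPKM, while in MC38 circles move both ways, with Spc24 going from 10.6 to 17.7 FPKM.

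In CT26, 37 of the 41 genes were higher in the knockdown library than in the control by any amount, where 49.1% of all 11928 genes were. The median log2 fold change over the 41 genes was 0.36, a 1.28-fold difference, beside -0.005 over all genes. More than 1.5-fold higher were 8 of the 41 (Bub1b, Ttk, Ndc80, Cenpa, Cdc20, Nuf2, Spc25 and Bub1), where 3.20% of all genes were. The study asked for this threshold in both lines at once, and here it was applied within each line. No member was under 0.6-fold, as 2.58% of all genes were. The counting interval lay above no change for 31 members and below it for 1, Spc24, beside 22.1% and 21.1% of all genes. In MC38 the same genes were split evenly: 21 of 41 were higher by any amount, beside 49.9% of all genes, and the median log2 fold change was 0.02, beside -0.001 over all genes. None was more than 1.5-fold higher or under 0.6-fold there, beside 2.47% and 1.03% of all genes. The counting interval lay above no change for 9 members and below it for 9 in MC38, beside 22.7% and 22.3% of all genes. RNA of whole cultures was measured, so a larger share of cells in the late cell cycle and more RNA per cell cannot be told apart.

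**Figure D2:**
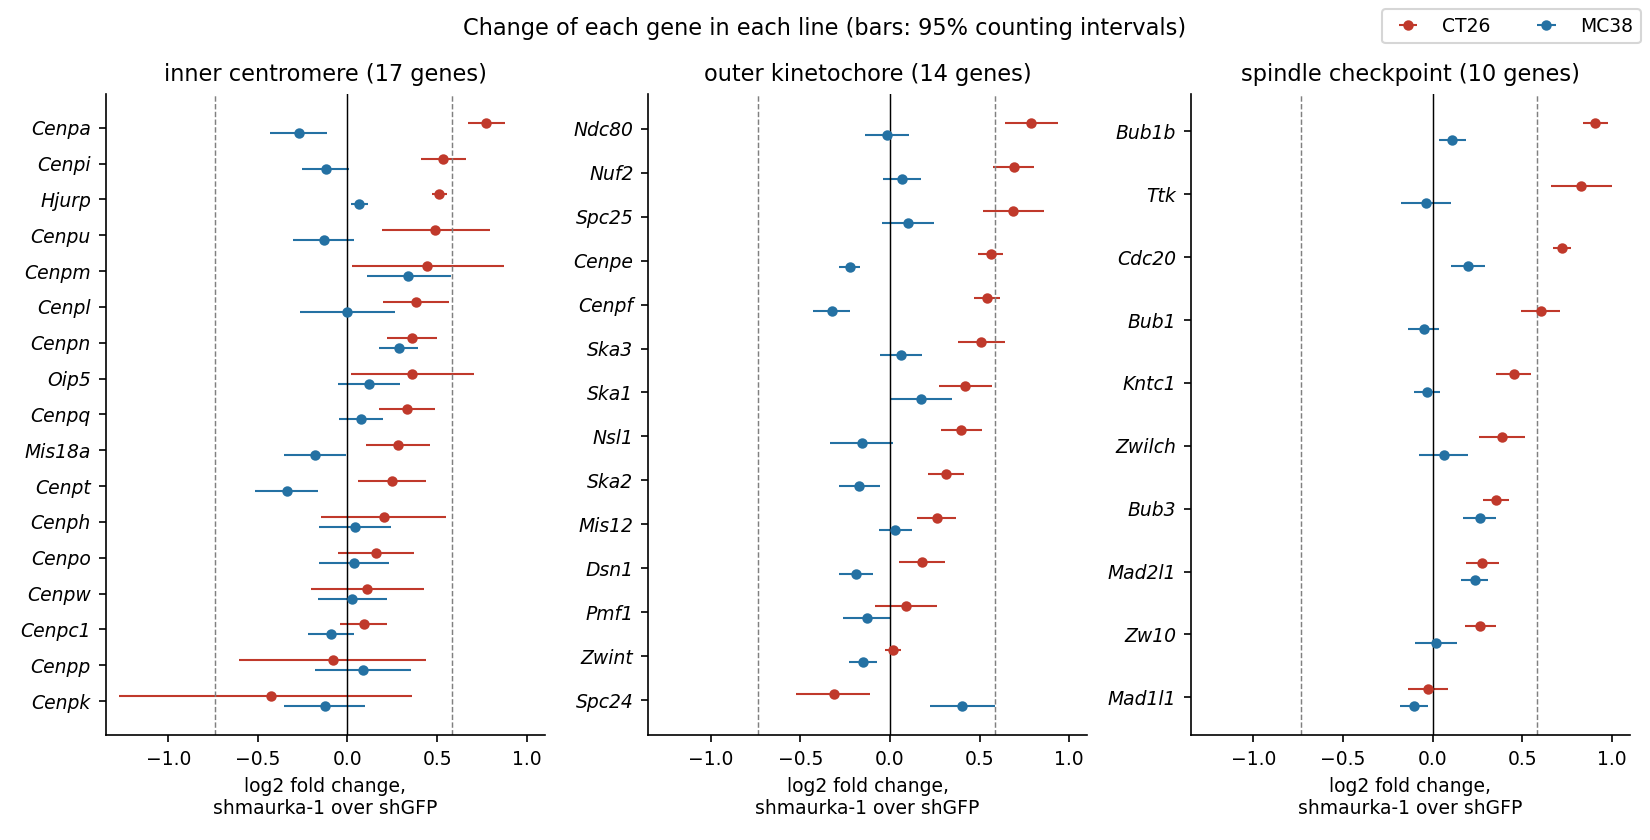
Log2 fold change of shmaurka-1 over shGFP for each gene, by subgroup, with CT26 in red and MC38 in blue, bars for 95% counting intervals and dashed lines at 1.5-fold and 0.6-fold. The 8 CT26 points past 1.5-fold lie mostly in the outer kinetochore and checkpoint panels, and no MC38 point passes either dashed line.

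The subgroups lay close together in their medians, and no test of a difference between them was made. In CT26 the median log2 fold change was 0.33 for the inner centromere, 0.41 for the outer kinetochore and 0.42 for the spindle checkpoint. Past 1.5-fold were 1 of 17 inner centromere genes, 3 of 14 outer kinetochore genes and 4 of 10 checkpoint genes, beside 3.20% of all genes. The middle of the distribution overlapped between them, with quartiles of 0.16 and 0.45 for the inner centromere, 0.20 and 0.56 for the outer kinetochore and 0.30 and 0.69 for the checkpoint. In MC38 the medians were 0.03, -0.07 and 0.04 in that order. When the 3 RZZ genes were moved from the checkpoint to the outer kinetochore, the CT26 checkpoint median became 0.60.

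Among inner centromere genes, Cenpa, which encodes the centromeric histone, had the largest difference in CT26. Control and knockdown had 1239 and 1948 fragments in CT26 and 709 and 575 in MC38. The level was thus higher with the knockdown in CT26 and lower in MC38. The log2 fold change was 0.77 (95% interval 0.67 to 0.88) in CT26 and -0.27 (-0.43 to -0.11) in MC38. Of the genes that load CENP-A, Hjurp had 8107 and 10629 fragments in CT26 and 6947 and 7127 in MC38, log2 fold changes of 0.51 (0.47 to 0.55) and 0.07 (0.02 to 0.11). Mis18a, a subunit of the licensing complex, had 498 and 557 fragments in CT26 and 602 and 520 in MC38, and Oip5, its partner, 133 and 157, and 523 and 557. The CENP-A histone and its chaperone were therefore both higher in CT26, and only the chaperone was higher in MC38.

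Among the constitutive centromere proteins none passed 1.5-fold in either line. Cenpi, of the CENP-H/I/K/M complex, had 905 and 1207 fragments in CT26, a log2 fold change of 0.54 (0.41 to 0.66), and 1026 and 924 in MC38, a log2 fold change of -0.12 (-0.25 to 0.01). Cenpk of the same complex had only 34 and 23 fragments in CT26 against 347 and 311 in MC38, and its CT26 interval of -1.27 to 0.36 was the widest of the 41. Cenpm, a further subunit, had 86 and 108 fragments in CT26 and 274 and 340 in MC38, with log2 fold changes of 0.44 (0.03 to 0.87) and 0.34 (0.11 to 0.57). Cenph, with 136 and 144 fragments in CT26, also had an interval there that spanned no change. Cenpl and Cenpn, which form a complex that contacts the CENP-A nucleosome, had log2 fold changes of 0.38 (0.20 to 0.56) and 0.36 (0.22 to 0.50) in CT26. In MC38 Cenpn was again higher, at 1221 and 1458 fragments with a log2 fold change of 0.29 (0.17 to 0.40), and Cenpl was not, at 243 and 238 fragments. Cenpt, a histone-fold protein that recruits the NDC80 complex, had 443 and 484 fragments in CT26 and 599 and 464 in MC38, log2 fold changes of 0.25 (0.06 to 0.44, and 0.38 to 0.41 by the deposited FPKM) and -0.34 (-0.52 to -0.16). By scaled counts Cenpt was the member with the lowest fold change in MC38. By the deposited FPKM there, Cenpu was lower, at 16.1 and 11.7, against 12.3 and 10.2 for Cenpt. Cenpc1, the other link to the outer kinetochore, had log2 fold changes of 0.09 (-0.04 to 0.22) and -0.09 (-0.22 to 0.04), and Cenpw, the partner of CENP-T, of 0.11 (-0.21 to 0.43) and 0.03 (-0.17 to 0.22). In the CENP-O/P/Q/U complex, Cenpu was 0.49 (0.19 to 0.79) and Cenpq 0.33 (0.18 to 0.49) in CT26 on the log2 scale. Cenpo and Cenpp had intervals that spanned no change in both lines, with Cenpp, the smallest difference of the subgroup in CT26, at 69 and 60 fragments there (log2 fold change -0.08) and 229 and 238 in MC38 (0.08).

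In the outer kinetochore, the NDC80 complex split by subunit. Ndc80, which binds the microtubule, had 614 and 976 fragments in CT26 and 1112 and 1078 in MC38. Nuf2, its coiled-coil partner, had 1003 and 1488 fragments in CT26 and 1466 and 1504 in MC38. Spc25, of the dimer that docks on the inner kinetochore, had 489 and 725 in CT26 and 759 and 797 in MC38. All 3 were more than 1.5-fold higher in CT26, with log2 fold changes of 0.79 (0.64 to 0.94), 0.69 (0.57 to 0.81) and 0.69 (0.52 to 0.86), and each had an MC38 interval that spanned no change. Spc24, the other subunit of that dimer, went the opposite way. It had 460 and 340 fragments in CT26 and 437 and 567 in MC38, log2 fold changes of -0.32 (-0.52 to -0.11) and 0.40 (0.22 to 0.59). It was the only member with an interval below no change in CT26 and had the largest fold change of the 41 in MC38. By the deposited FPKM, Spc24 was at 13.7 and 12.1 in CT26 and at 10.6 and 17.7 in MC38, past 1.5-fold in the second line.

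In the rest of the outer kinetochore no gene passed 1.5-fold. Cenpe, a kinesin of the fibrous corona, had 2960 and 4018 fragments in CT26 and 4906 and 4114 in MC38, log2 fold changes of 0.56 (0.49 to 0.63) and -0.23 (-0.29 to -0.17). Cenpf, a corona protein, had 2652 and 3553 fragments in CT26 and 1736 and 1358 in MC38, log2 fold changes of 0.54 (0.47 to 0.62) and -0.33 (-0.43 to -0.22). Both corona genes were higher in CT26 and lower in MC38. Cenpe, at 1.48-fold in CT26, lay just under the threshold that Bub1, at 1.52-fold, passed, and their intervals overlapped. The SKA complex, which follows shortening microtubules, had CT26 log2 fold changes of 0.42 (Ska1), 0.31 (Ska2) and 0.51 (Ska3), and MC38 values of 0.17, -0.17 and 0.06. The MIS12 complex, the platform on which NDC80 assembles, had a CT26 median of 0.22, from 0.09 for Pmf1 to 0.40 for Nsl1, with Dsn1 at 0.18 and Mis12 at 0.26, and an MC38 median of -0.14. Zwint, the most abundant of all members in CT26, differed least of this subgroup in that line. It had 9290 and 8645 fragments in CT26 and 2880 and 2539 in MC38, log2 fold changes of 0.02 (-0.03 to 0.06) and -0.15 (-0.23 to -0.07).

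Spindle checkpoint genes held the largest difference of the 41. Bub1b, which encodes BUBR1, a subunit of the checkpoint inhibitor, was counted 2610 times in the CT26 control and 4505 times in the knockdown, a 1.88-fold difference, and 2810 and 2970 times in MC38. The log2 fold change was 0.91 (0.84 to 0.98) in CT26 and 0.11 (0.03 to 0.18) in MC38. Ttk, the gene of MPS1 kinase at the head of the pathway, had 458 and 749 fragments in CT26 and 883 and 844 in MC38, log2 fold changes of 0.83 (0.66 to 1.00) and -0.04 (-0.17 to 0.10). Cdc20, the target of the checkpoint, had 5088 and 7718 fragments in CT26 and 1740 and 1956 in MC38, log2 fold changes of 0.72 (0.67 to 0.77) and 0.20 (0.10 to 0.29). Kinase, inhibitor subunit and target were thus all more than 1.5-fold higher in CT26, while in MC38 Bub1b and Cdc20 were slightly higher and Ttk was within counting error. Bub1, the kinase that recruits further checkpoint proteins, had 1170 and 1635 fragments in CT26 and 2231 and 2111 in MC38, log2 fold changes of 0.60 (0.49 to 0.71) and -0.05 (-0.14 to 0.04).

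The remaining checkpoint genes stayed under 1.5-fold. Mad2l1, which encodes MAD2, had 1794 and 1999 fragments in CT26 and 2594 and 2989 in MC38, log2 fold changes of 0.28 (0.18 to 0.37) and 0.23 (0.16 to 0.31). Bub3, the partner of BUB1 and BUBR1, had log2 fold changes of 0.35 (0.28 to 0.43) and 0.26 (0.17 to 0.36). Both were higher in both lines with intervals above no change, although the Bub3 locus in the files holds 69 other genes. Mad1l1, which encodes the kinetochore receptor of MAD2, had 1397 and 1261 fragments in CT26 and 2895 and 2638 in MC38, log2 fold changes of -0.03 (-0.14 to 0.08) and -0.10 (-0.18 to -0.03). The RZZ complex, which brings dynein and MAD1 to the kinetochore, had CT26 log2 fold changes of 0.27 for Zw10, 0.39 for Zwilch and 0.45 for Kntc1 (0.28 to 0.30 by the deposited FPKM), and all 3 MC38 intervals spanned no change. Of the 8 members past 1.5-fold in CT26, Cdc20 shares its locus in the files with Elovl1 and Ndc80 with Gm23115. Over the 25 members with a locus of their own the median log2 fold change in CT26 was 0.42, and over the 16 that share one it was 0.34.

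Both lines were set side by side for each gene. Higher in CT26 and lower in MC38 by any amount were 18 of the 41 genes, where 21.2% of all genes were. With the counting interval above no change in CT26 and below it in MC38 there were 7 (Cenpa, Cenpt, Mis18a, Cenpe, Cenpf, Dsn1 and Ska2), where 3.84% of all genes were. None of the 10 checkpoint genes was among these 7, but 10 genes are too few to tell this from the 3.84% of all genes. Spc24 alone showed the reverse, below in CT26 and above in MC38, where 3.60% of all genes did. The difference of the log2 fold changes, CT26 minus MC38, had a median of 0.37 over the 41 genes, 0.24 over the inner centromere, 0.46 over the outer kinetochore and 0.40 over the checkpoint. With 1 library per condition this difference between the lines could not be tested.

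**Figure D3:**
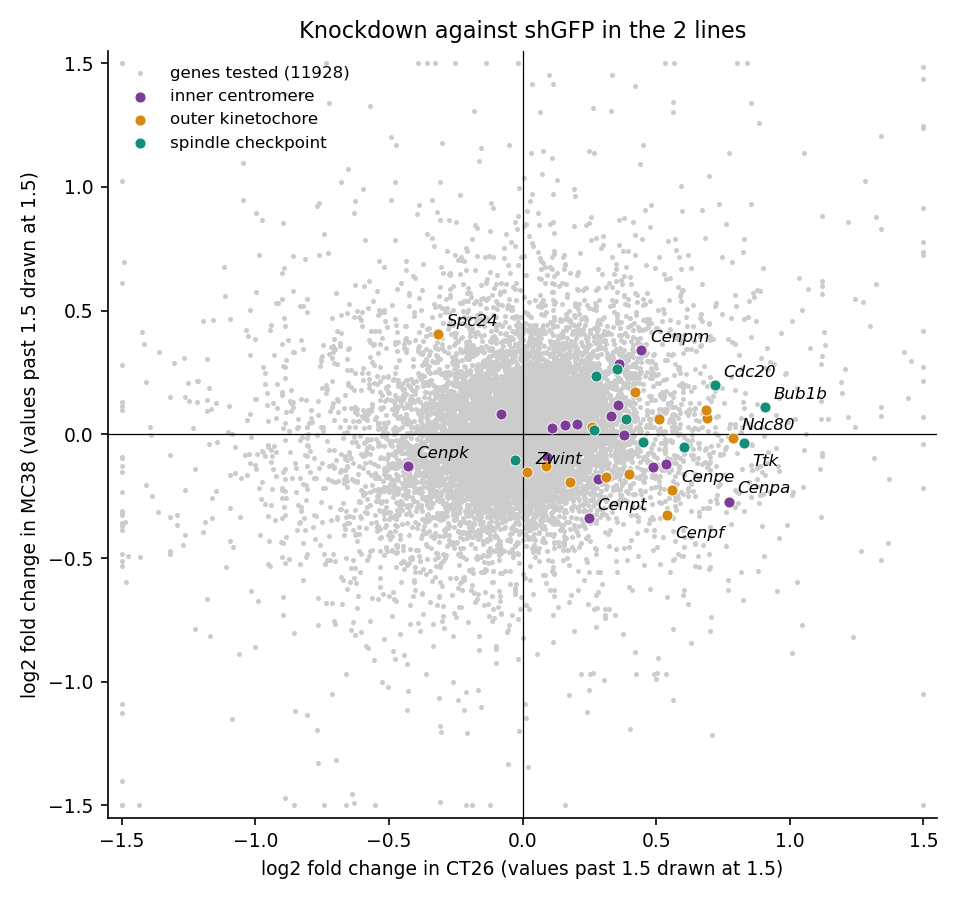
Log2 fold change of shmaurka-1 over shGFP in CT26 (x axis) against MC38 (y axis), with all 11928 genes compared in grey, the 3 subgroups in color and values past 1.5 drawn at 1.5. Colored points spread to the right of 0 along the x axis, up to 0.91 for Bub1b, and on both sides of 0 along the y axis, with Spc24 farthest to the upper left.

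The mean knockdown effect over the 2 lines was tested with the lines as the only repeat, named here the test common to both lines. It was the quasi-likelihood test of edgeR, blocked on cell line, with p-values adjusted by Benjamini-Hochberg over all 11928 genes. Of the 41 genes, 3 rose, where 1.67% of all genes did, and none fell, where 1.12% did. They were Bub1b (log2 fold change 0.51, adjusted p = 0.000115, higher in 2 of 2 lines), Cdc20 (0.47, adjusted p = 0.000392, higher in 2 of 2) and Nuf2 (0.38, adjusted p = 0.0416, higher in 2 of 2). At an unadjusted p under 0.05 there were 16 members, beside 12.3% of all genes, each higher on average over the lines, though not always in both (Cenpa was lower in MC38). For Bub1b, Cdc20 and Nuf2 most of the average came from CT26, and the MC38 value of Nuf2 (0.07, -0.04 to 0.17) was within counting error. Nuf2 also lost its call with total-count scaling (adjusted p = 0.0671), with no filter (0.0879) and with the filter raised to 50 counts (0.237), and Bub1b and Cdc20 lost theirs in the last of these (0.0908 and 0.057). The fit has 1 residual degree of freedom and takes its spread from all genes, with prior degrees of freedom estimated as infinite. A gene's own disagreement between the lines thus did not widen its spread, and a call does not show that the lines agree. DESeq2 called none of the 41 (29 of all genes), with 5 members and 497 of all 11928 genes at an unadjusted p under 0.05.

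Between the lines, on average over both hairpins, the 41 genes were called about as often as all genes. Line and medium cannot be told apart here. In the same edgeR fit, a comparison added after the data had been seen, 14 members were higher in CT26 and 15 in MC38 at an adjusted p under 0.05, beside 36.6% and 36.7% of all genes. Among those higher in CT26 were Cdc20 (4.14-fold), Zwint (4.04-fold), Cenpa (2.97-fold), Nsl1 (2.86-fold), Cenpl (2.50-fold) and Cenpf (2.43-fold). Higher in MC38 were Cenpk (9.51-fold), Oip5 (3.06-fold), Cenpp (2.97-fold) and Cenpm (2.59-fold). By subgroup, 4 inner centromere genes were higher in CT26 and 9 in MC38, 5 and 2 outer kinetochore genes, and 5 and 4 checkpoint genes, with no test of a difference between subgroups. Scaling by total counts in place of TMM gave 23 members higher in MC38 and 12 in CT26, and moved all genes the same way, to 5858 of 11928 higher in MC38 and 3030 in CT26.

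Promoter windows were available from RefSeq (GRCm38.p6) for 37 of the 41 genes, each spanning 250 bases before to 50 bases after a start. They were searched on both strands for the letters of the cell cycle genes homology region (CHR, TTTGAA or TTCGAA), an element through which late cell cycle genes are known to be held off outside G2 and mitosis, and for CCAAT, the box read by NF-Y. A match is a description of the letters and not a mapped site. CHR letters stood in 20 of the 37 members (54.1%), in 21.7% of all 27025 genes with a window and in 16.3% of the 8498 compared genes with one. CCAAT stood in 26 (70.3%), against 41.1% and 44.0%, and both in 16 (43.2%), against 8.61% and 7.04%. By subgroup, CHR letters stood in 8 of 17 inner centromere genes, 5 of 11 outer kinetochore genes and 7 of 9 checkpoint genes with a window. For members with CHR letters the median difference on the log2 scale was 0.48 in CT26 and 0.02 in MC38. Of these, 7 of 20 passed 1.5-fold in CT26, beside 3.20% of all genes. Members without them had medians of 0.25 and -0.105, and 1 of 17, Nuf2, passed, beside the same 3.20%. The share of all genes with or without the letters that passed was not computed, so no link of the letters to the differences was tested. The ranges overlapped, at 0.09 to 0.91 with and -0.43 to 0.69 without the letters in CT26.

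**Figure D4:**
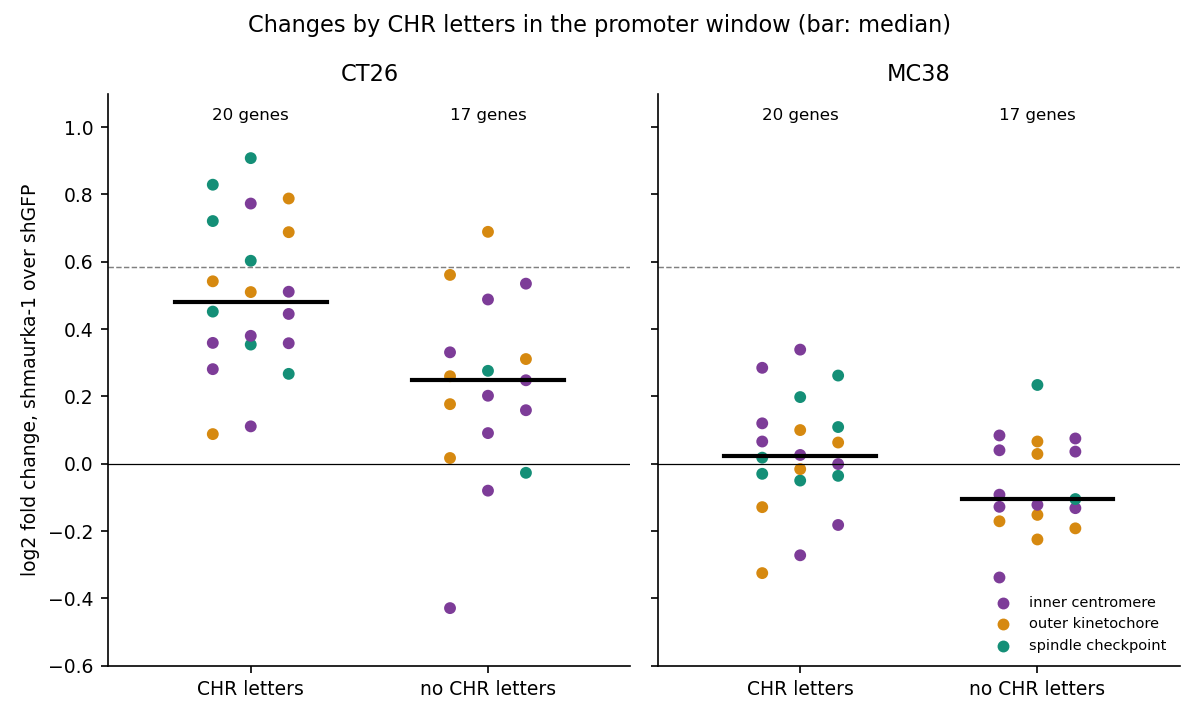
Log2 fold change of the 37 genes with a promoter window, split by whether CHR letters stand in it, for CT26 and MC38, with color for the subgroup, a black bar for the median and a dashed line at 1.5-fold. In CT26 the medians are 0.48 with the letters and 0.25 without, and in MC38 they are 0.02 and -0.105.

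The windows of 8 genes are shown as examples chosen after their values were seen: the 5 members with the largest CT26 differences, all with CHR letters, then Pmf1, which has the letters and was within counting error in CT26 (0.09), Nuf2, which passed 1.5-fold without them, and Zwint, which lacks them and was within counting error there. Cenpw (0.11) also had the letters and a small difference, so the split over all 37 genes is less clean than these examples. They run 5′ to 3′ on the strand of the gene, capitals mark CHR or CCAAT letters on either strand, and positions count from the start, negative before it. Bub1b lies at chr2:118597961-118598260 (plus strand), Ttk at chr9:83834439-83834738 (plus), Ndc80 at chr17:71526808-71527107 (minus), Cenpa at chr5:30666636-30666935 (plus), Cdc20 at chr4:118437294-118437593 (minus), Pmf1 at chr3:88410348-88410647 (minus), Nuf2 at chr1:169531415-169531714 (minus) and Zwint at chr10:72654596-72654895 (plus).
Bub1b: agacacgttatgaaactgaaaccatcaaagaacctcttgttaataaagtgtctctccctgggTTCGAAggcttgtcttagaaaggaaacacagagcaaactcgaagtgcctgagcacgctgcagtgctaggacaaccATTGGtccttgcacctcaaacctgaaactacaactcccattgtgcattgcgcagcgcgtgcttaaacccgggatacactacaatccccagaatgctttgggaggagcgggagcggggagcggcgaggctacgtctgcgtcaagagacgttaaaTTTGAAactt
Ttk: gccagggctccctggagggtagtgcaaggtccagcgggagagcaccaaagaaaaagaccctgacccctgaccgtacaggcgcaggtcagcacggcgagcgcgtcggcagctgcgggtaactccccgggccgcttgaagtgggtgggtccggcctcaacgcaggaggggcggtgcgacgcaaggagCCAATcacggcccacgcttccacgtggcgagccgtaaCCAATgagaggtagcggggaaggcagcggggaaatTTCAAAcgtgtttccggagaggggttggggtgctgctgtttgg
Ndc80: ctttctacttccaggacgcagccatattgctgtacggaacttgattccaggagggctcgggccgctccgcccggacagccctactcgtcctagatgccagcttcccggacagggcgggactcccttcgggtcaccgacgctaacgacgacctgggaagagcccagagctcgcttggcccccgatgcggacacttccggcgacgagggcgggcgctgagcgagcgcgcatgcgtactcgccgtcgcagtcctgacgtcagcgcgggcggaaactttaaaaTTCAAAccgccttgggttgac
Cenpa: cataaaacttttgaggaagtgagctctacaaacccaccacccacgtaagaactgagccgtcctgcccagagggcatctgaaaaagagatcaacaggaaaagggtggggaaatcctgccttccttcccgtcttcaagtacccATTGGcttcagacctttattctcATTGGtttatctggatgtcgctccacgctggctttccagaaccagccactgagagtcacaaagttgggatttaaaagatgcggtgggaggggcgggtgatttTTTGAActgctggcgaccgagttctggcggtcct
Cdc20: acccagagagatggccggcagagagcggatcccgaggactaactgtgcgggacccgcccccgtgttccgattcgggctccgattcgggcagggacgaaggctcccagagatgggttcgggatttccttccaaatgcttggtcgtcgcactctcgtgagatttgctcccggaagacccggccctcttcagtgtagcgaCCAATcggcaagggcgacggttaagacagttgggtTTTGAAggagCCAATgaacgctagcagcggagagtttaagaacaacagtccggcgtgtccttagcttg
Pmf1: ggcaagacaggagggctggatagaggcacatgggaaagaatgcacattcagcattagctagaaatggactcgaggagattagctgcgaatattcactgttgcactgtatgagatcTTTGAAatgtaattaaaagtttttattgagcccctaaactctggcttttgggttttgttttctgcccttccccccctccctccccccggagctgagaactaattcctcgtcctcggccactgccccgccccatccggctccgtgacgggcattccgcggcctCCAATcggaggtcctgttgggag
Nuf2: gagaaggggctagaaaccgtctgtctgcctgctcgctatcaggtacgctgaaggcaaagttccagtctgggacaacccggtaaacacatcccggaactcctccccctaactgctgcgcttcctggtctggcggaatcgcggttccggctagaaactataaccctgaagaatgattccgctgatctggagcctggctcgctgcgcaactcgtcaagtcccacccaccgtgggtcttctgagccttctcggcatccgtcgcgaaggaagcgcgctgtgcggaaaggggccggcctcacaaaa
Zwint: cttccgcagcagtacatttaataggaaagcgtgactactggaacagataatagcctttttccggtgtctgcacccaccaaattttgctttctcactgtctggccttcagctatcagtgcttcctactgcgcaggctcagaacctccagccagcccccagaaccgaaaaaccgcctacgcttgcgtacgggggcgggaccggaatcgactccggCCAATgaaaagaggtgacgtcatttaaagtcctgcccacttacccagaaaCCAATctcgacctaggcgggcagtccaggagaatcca

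In Bub1b the CHR letters began at -188 and 41, in Ttk at 8, in Ndc80 at 30, in Cenpa at 17, in Cdc20 at -18 and in Pmf1 at -135. Ttk, Cenpa and Cdc20 each carried 2 CCAAT matches upstream of the start, Bub1b 1 and Ndc80 none. Nuf2 held neither word, and Zwint held 2 CCAAT matches, at -37 and 14. Among the other members past 1.5-fold in CT26, Bub1 had CHR letters at 15 and Spc25 at 25. Spc24, Ska1, Nsl1 and Zwilch were not among the windows used.

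Other genes of the pathway were taken from 4 further lists. Of 14 other kinetochore genes the CT26 median was 0.38 and the MC38 median 0.002 on the log2 scale, and 1 passed 1.5-fold in CT26, beside 3.20% of all genes. That was Sgo2a, a shugoshin that protects centromeric cohesion, with 650 and 1114 fragments in CT26 and 1426 and 1082 in MC38, log2 fold changes of 0.90 and -0.37. Knl1, the scaffold on which BUB1 docks, had 0.57 and -0.17, and Spag5, a spindle protein, 0.49 and -0.28. Lowest in CT26 were Cenpx at -0.53 and Bod1l at -0.18, and highest in MC38 were Cenps at 0.46 and Cenpx at 0.37. In all, 4 of the 14 (Sgo2a, Knl1, Spag5 and Sgo1) had the interval above no change in CT26 and below it in MC38, beside 3.84% of all genes. Cenpx alone showed the reverse, beside 3.60% of all genes.

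The APC/C is the ubiquitin ligase that CDC20 activates and the checkpoint restrains. Its 14 subunits had medians of 0.03 in CT26 and 0.04 in MC38, with none past either threshold. Cdc23 stood apart, with log2 fold changes of 0.46 and 0.36, and passed the test common to both lines (adjusted p = 0.00741 by edgeR, 0.362 by DESeq2 and 0.0575 with the filter at 50 counts). The next in CT26 was Cdc27 at 0.11, the lowest were Anapc13 at -0.31 and Anapc11 at -0.24, and in MC38 the lowest were Anapc2 at -0.45 and Anapc10 at -0.35, with Anapc13 second highest there at 0.18. The ligase itself thus lay near no change in CT26, unlike its co-activator Cdc20.

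The 11 regulators and substrates of the APC/C had a median of 0.60 in CT26, and 7 of 11 passed 1.5-fold, beside 3.20% of all genes. Fbxo5, which encodes the APC/C inhibitor EMI1, had 442 and 763 fragments in CT26 and 846 and 998 in MC38, log2 fold changes of 0.91 and 0.27. Ccnb1, the gene of cyclin B1, had 3376 and 5270 fragments in CT26 and 2685 and 2117 in MC38, log2 fold changes of 0.76 and -0.31. In MC38 the median of the list was -0.10, with Ccna2 at 0.10 the next highest after Fbxo5, and Mad2l1bp, lowest in CT26 at -0.17, was also at -0.31. Fbxo5 (adjusted p = 0.00131), Ccna2 (0.0129) and Ube2c (0.0429) passed edgeR's test common to both lines. None of these 3 passed with DESeq2 (0.383, 0.734 and 1.0) or with the filter at 50 counts (0.069, 0.153 and 0.246), and Ube2c also failed with total-count scaling (0.0772), DESeq2's size factors (0.0524) and no filter (0.0735).

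Of 20 genes of replication licensing and S phase, 18 could be compared, since Cdt1 and Gins2 were listed at 0 in both CT26 libraries. The medians were 0.11 in CT26 and 0.095 in MC38, with none past 1.5-fold. Cdc6, a licensing factor, had log2 fold changes of 0.55 and 0.46 (adjusted p = 0.00468), and Rrm2, a subunit of ribonucleotide reductase, 0.55 and 0.41 (adjusted p = 0.000157), so both rose in the edgeR test common to both lines, also with the filter at 50 counts (0.0488 and 0.0176), and neither passed with DESeq2 (0.3 and 0.0632). Ccne1 was at 0.44 in MC38. Lowest were Gins1 at -0.28 and Prim1 at -0.03 in CT26, and Slbp at -0.21 and Prim1 at -0.08 in MC38.

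**Figure D5:**
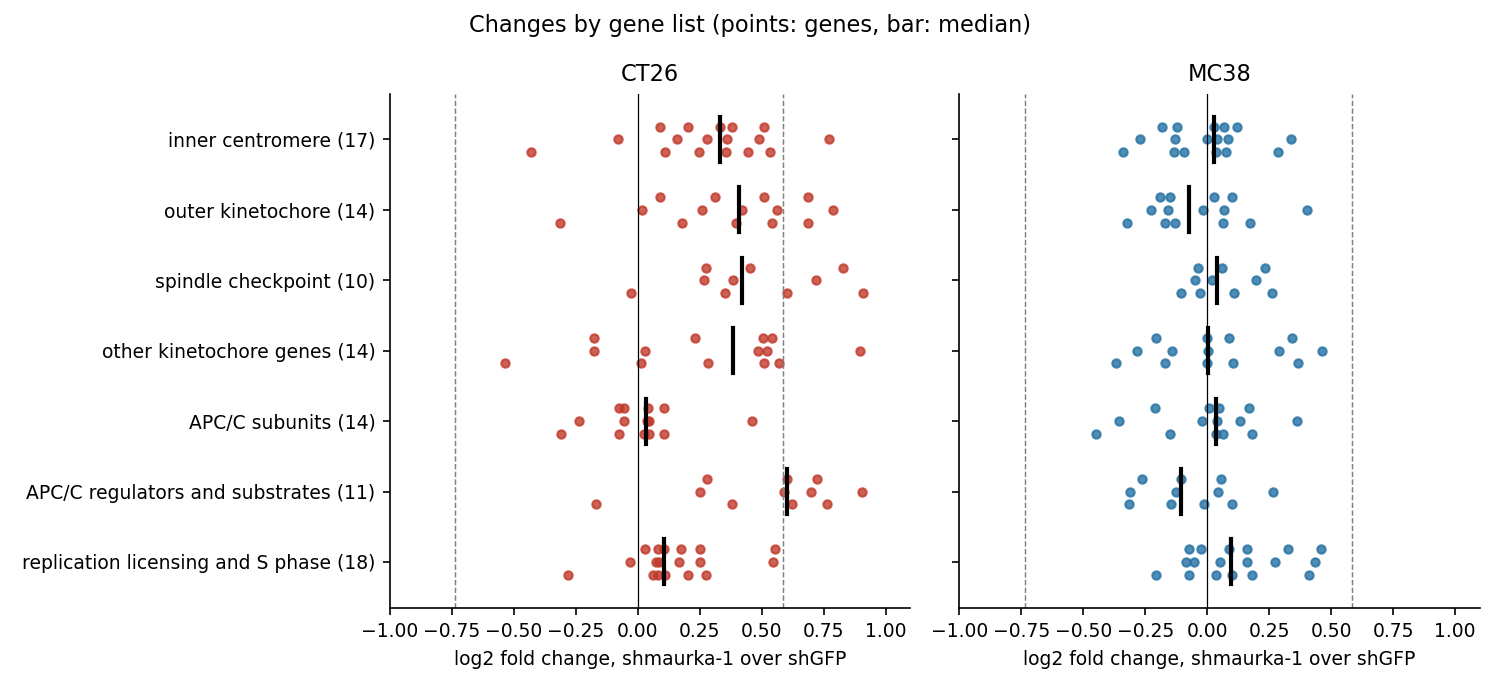
Log2 fold change of every compared gene in the 3 subgroups and in 4 further lists, for CT26 and MC38, with 1 point per gene, a black bar for the median and dashed lines at 1.5-fold and 0.6-fold. In CT26 the subgroup medians (0.33 to 0.42) lie between that of the APC/C subunits (0.03) and that of the APC/C regulators and substrates (0.60), and in MC38 all medians lie between -0.10 and 0.10.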

How the data were processed

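RNA-seq of 4 libraries, 1 per condition, was analysed. Per the labels, strand-specific libraries were made, and the submitters' processing notes name Trimmomatic 0.36, HISAT2, Cufflinks 2.2.1, Cuffdiff and GRCm39. Gene coordinates in the files are those of GRCm38 (of genes that share their locus with no other, 99.8% of 20022 overlapped the RefSeq GRCm38.p6 gene of that name, and 9.54% of 18200 the GRCm39 gene). Use of strand in counting is not given in the sources used here. The authors deposited estimated counts, scaled between libraries, and FPKM values. Between 97.07% and 97.73% of nonzero estimated counts were whole multiples, within 0.05, of 1 step per library, and dividing by it gave the fragments.

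Log2 fold changes used the deposited counts after TMM scaling, after addition of 1 count in proportion to library size. Genes under 10 counts on average in either line were left out. Intervals are exact conditional binomial intervals on fragments at 95%. A gene was called above 1.5-fold or under 0.6-fold. For the mean effect over both lines (the test common to both lines), edgeR 4.0.16 (R 4.3.3) fitted rounded counts, with DESeq2 1.42.0 as an alternative. The edgeR fit was tested on simulated data. Motifs, figures and the rest used Python 3.11.15. All members appear, and values in every library were given for those past a threshold and, per subgroup, for the 3 largest and the smallest absolute differences in CT26. Further genes were shown for their role or for opposite signs in the 2 lines, chosen after their values were seen. Of the other lists, the 2 largest changes in each direction were named, as were genes that passed the common test. Members and lists were chosen with earlier results of these data known. Alternatives covered scaling, added count, unit, filters, shared loci, subgroup membership and test. No sample column was left unused.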

Additional observations from a re-analysis of the deposited data

Results flagged for a closer look

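For 8 of the 41 genes the counting intervals of the knockdown difference lay on opposite sides of no change in the 2 lines. Over all genes compared, 3.84% had the interval above no change in CT26 and below it in MC38, and 3.60% the reverse. With 1 library per condition, these differences were not tested. As CT26 minus MC38 on the log2 scale the difference was 1.045 for Cenpa, 0.867 for Cenpf, 0.786 for Cenpe, 0.586 for Cenpt, 0.482 for Ska2, 0.463 for Mis18a and 0.369 for Dsn1, which were higher with the knockdown in CT26 and lower in MC38. It was -0.719 for Spc24, which was lower in CT26 and higher in MC38. The median of this difference over all 41 genes was 0.37. Of the 8, Cenpf, Cenpt and Ska2 share a locus in the files with other genes.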

How the results depend on the processing

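Leaving out a replicate was not possible, since each condition has 1 library. The labels give no replicate numbers to pair, so the only pairing was that of knockdown with control within each line, through the block for cell line in the edgeR fit. No member whose counting interval excluded no change turned in direction under any alternative run. The medians in MC38 lay near 0 and did turn: over the alternatives they ranged from -0.004 to 0.025 for all members, -0.046 to 0.032 for the inner centromere, -0.095 to 0.063 for the outer kinetochore and -0.006 to 0.109 for the checkpoint. Of 212 results of the lists over the alternatives, 202 were scored as the same. For a median this meant staying inside the median counting interval of its members, and for a count staying within 1.5 times. A median near 0 could turn sign and still be scored so, and some alternatives could not alter every result. With the deposited FPKM at a pseudocount of 1 or 0.1, 1 member (Spc24) passed 1.5-fold in MC38, at 0.69 or 0.73. Outside their counting intervals with FPKM, at pseudocounts of 1 and 0.1, were also Kntc1 (0.28 and 0.30), Bub1b (1.01 and 1.03) and Cdc20 (0.79 and 0.79) in CT26, Cenpu (-0.43 and -0.46) and Cenpe (-0.15 and -0.16) in MC38, and at 0.1 Nsl1 in MC38 (0.018). Cenpt in CT26 (0.38 and 0.41), Spc24 in CT26 (-0.16 and -0.17) and, at a pseudocount of 1, Oip5 in CT26 (0.23) moved by over 1.5 times. So did members with smaller differences, among them Cenpo (0.159, up to 0.347 over the alternatives) and Pmf1 (0.088, up to 0.159) in CT26. Without the members that share a locus, 23 members were higher in CT26 and 12 in MC38, of the 25 left, and the MC38 outer kinetochore median was 0.063. With RZZ counted as outer kinetochore, the CT26 checkpoint median was 0.603. The 3 calls common to both lines became 0 with DESeq2, 0 with a mean of at least 50 counts, where edgeR's estimated prior degrees of freedom fell to 16.1, and 0 without the block for cell line, where the calls over all genes went from 333 to 0 (13 at an unadjusted p under 0.05, none of them a member). In these 3 settings Bub1b had adjusted p values of 0.377, 0.0908 and 1.0, and Cdc20 of 0.29, 0.057 and 1.0. Nuf2 was also lost with total-count scaling (0.0671) and with no filter (0.0879). With total-count scaling, 23 members were higher in MC38 than in CT26, as were 5858 of all 11928 genes (4382 with TMM). Fragments in place of deposited counts, and the comparison of CT26 with MC38, were chosen after seeing the data. The largest shift of the median of all genes by a scaling was -0.024, in CT26 with total counts. Depth limited Cenpk, Cenpp, Cenpm, Cenph and Oip5 in CT26, which had 23 to 157 fragments.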
